A study of Mus musculus with 12 samples.

Results

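The genes described here are 37 genes of DNA damage repair and its checkpoints, taken by symbol from a table of 24255 genes measured in whole mouse ovaries. They comprise 13 genes of homologous recombination, 7 of break sensing and checkpoint signalling, 3 of the p53 family and its control, 6 of the Fanconi anaemia pathway, 4 of end joining, and 4 of mismatch, base excision and single-strand break repair. Ovaries came from mice in which Mtor, the kinase at the centre of nutrient and growth signalling, was deleted in oocytes by a Cre recombinase driven by the Gdf9 promoter (CKO, 5 libraries), and from wild-type mice (WT, 7 libraries). Both groups were C57BL/6 mice aged 6 months that had been given 5 IU of equine chorionic gonadotropin, also called PMSG, a hormone that stimulates follicle growth, 46 h before the ovaries were taken. Gdf9-Cre is used to delete genes in oocytes, so the granulosa, theca, stromal and immune cells of CKO ovaries should keep an intact Mtor gene. The deletion was not measured by cell type here. The column name of 1 WT library fits the labels of 2 samples, and that library is called unnumbered here. The labels give each library as a separate sample without naming animals, and the p-values therefore describe differences relative to the spread among these libraries, which may be partly technical.

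A DNA double-strand break is recognised by the Mre11-Rad50-Nbn complex and the kinases Atm and Atr, which signal through Chek2 and Chek1 to halt the cell cycle and through p53 to arrest or kill the cell. The break is then rejoined either by end joining or, in cells that have copied their DNA, by homologous recombination, in which Brca1, Brca2 and their partners prepare the broken end to copy from the intact sister strand. In the ovary these genes are known from the meiotic and resting oocyte, where recombination, Chek2 and the p63 protein decide oocyte survival, and from the dividing granulosa cells of growing follicles, which repair damage arising during replication.

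Values are FPKM, in which sequenced fragments are divided by transcript length in kilobases and scaled by the library size. Differences are given as the log2 fold change of FPKM + 1, CKO minus WT, which understates the change of genes with low FPKM, and a gene is called at an adjusted p (limma, Benjamini-Hochberg over 13168 genes tested) under 0.05. The genes tested had at least 1 FPKM in at least 5 of the 12 libraries. A value of 0 in such a table can be a failed estimate. Depth was estimated from genes with a single transcript that stayed under 1 FPKM and were above 0 in at most 4 libraries. In each library the 25th percentile of FPKM times transcript length in kilobases, over their values above 0, was taken as 1 fragment. By this estimate depth spanned a 2.15-fold range, with relative depths of 0.895 to 1.62 in CKO and 0.756 to 1.32 in WT. A transcript of 1 kb then gained 0.303 to 0.651 FPKM with each fragment, and fragment numbers below rest on this assumption. Mtor itself lay between 4.63 and 5.88 FPKM in CKO and between 3.84 and 5.55 FPKM in WT, with a log2 fold change of 0.08 (SE 0.12). This whole-ovary level cannot check the genotypes, since other ovarian cells should carry the gene. The ovaries differed in the markers of several cell types, and these sums of FPKM bear on every value below. Granulosa cell markers (12 of 15 called lower, 0 higher) summed to between 1587 and 2793 FPKM in CKO and between 4060 and 7171 FPKM in WT. Markers of dividing cells (14 of 18 called lower, 0 higher) summed to between 79.8 and 178 FPKM in CKO and between 211 and 308 FPKM in WT. Oocyte markers (6 of the 13 tested called lower, 0 higher) summed to between 21.0 and 88.3 FPKM in CKO and between 76.4 and 252 FPKM in WT, and macrophage and immune markers (0 of 15 lower, 12 higher) to between 1732 and 4695 FPKM in CKO and between 529 and 1608 FPKM in WT. CKO replicates 2 and 3 also held markers of oviduct epithelium, at 261 and 84.5 FPKM, against at most 2.26 FPKM in the other CKO libraries and at most 1.66 FPKM in WT. Most of these 2 sums was Ovgp1, at 252 and 81.9 FPKM, which was above every WT library in all 5 CKO libraries. In CKO replicate 3 Foxj1 and Pax8 were at 1.48 and 1.06 FPKM, and Dnah5, Ccdc113 and Sntn were at 0. In whole tissue, fewer cells of a type and less RNA per cell cannot be told apart.

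Of the 37 repair and checkpoint genes, 30 could be tested, and 8 of these were called lower in CKO ovaries: Brca1, Xrcc2, Exo1, Brip1 and Bard1 of homologous recombination, the checkpoint kinase gene Chek1, Fancm of the Fanconi anaemia pathway and the mismatch repair gene Msh6. Across all genes tested, 7.59% were called lower and 8.7% higher. No test compared the roles with each other. The other 22 did not pass, and none of the 30 was called higher by limma (0 at an unadjusted p under 0.05, and 0 by the exact Wilcoxon test), whereas 11 were lower at an unadjusted p under 0.05, a threshold that 14.7% of all genes tested passed in the lower and 15.5% in the higher direction. In total 24 of the 30 had a log2 fold change below 0, with a median of -0.18, while the median over all genes was -0.01. In 5 of the 30 genes, all 5 called lower, every CKO library lay below every WT library. That arrangement was found in 3.65% of all genes tested. In none of the 30 was every CKO library above every WT library (4.09% of all genes tested). Bard1, Brip1 and Exo1 passed the filter through WT libraries alone, since no CKO library reached 1 FPKM, so a difference in them was partly built into the filter. With no filter on low values 7 of the 37 genes were called lower, Msh6 being lost, against 5.12% of all 18254 genes then tested.

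**Figure D1:**
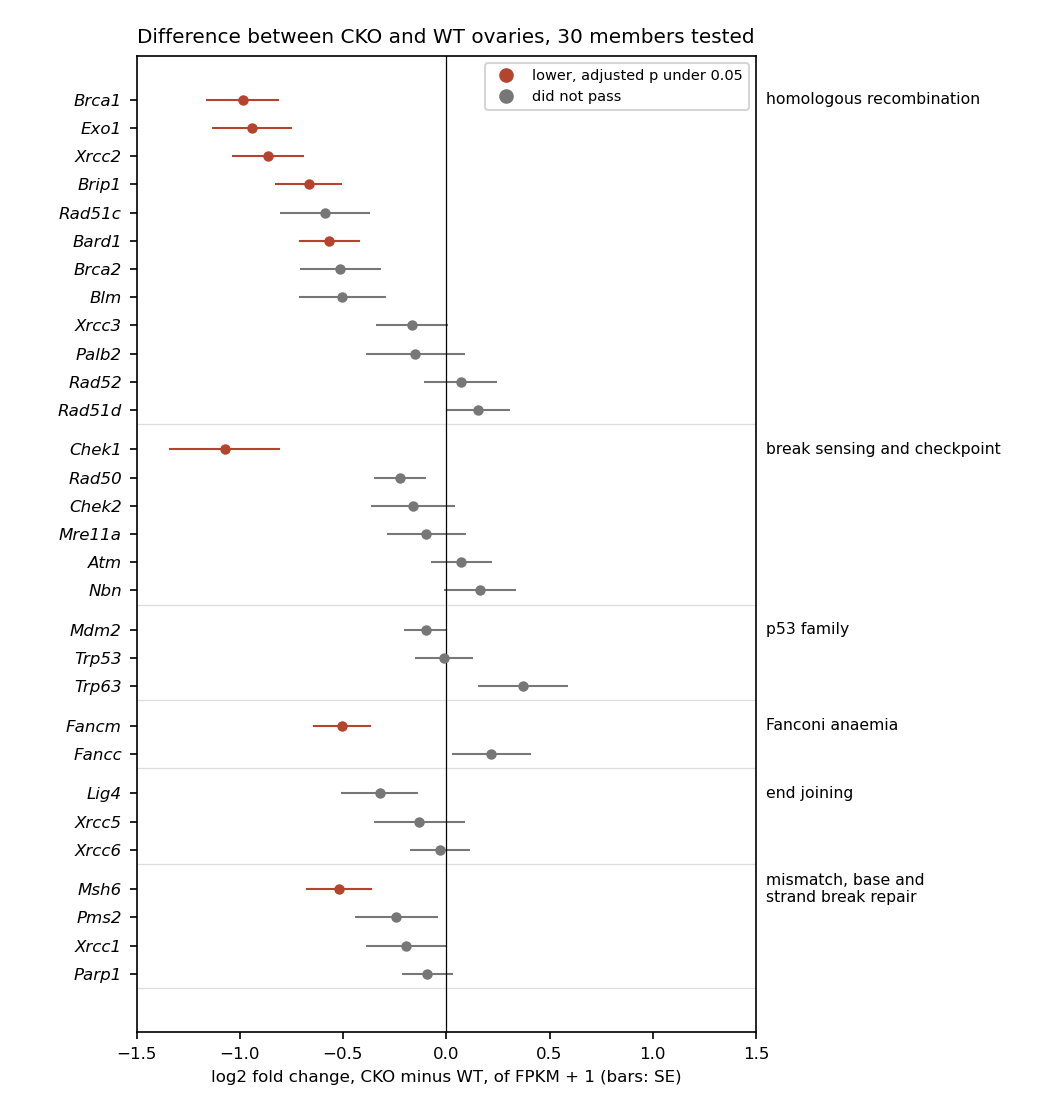
Log2 fold change of FPKM + 1 (x axis, CKO minus WT) for the 30 genes tested, with bars of 1 SE, ordered within each role (labels on the right). The 8 genes called lower are in red, and 24 of the 30 points lie left of 0.

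Of the 13 homologous recombination genes, 12 were tested, 5 were called lower and 0 higher, with a median log2 fold change of -0.54. Across all genes tested 7.59% were called lower and 8.7% higher, with a median of -0.01. Of the 5, Bard1, Brip1 and Exo1 passed the filter through WT libraries alone. Brca1 (chromosome 11, 101488764 to 101551955, minus strand, mm10) encodes the ubiquitin ligase that promotes the trimming of broken ends. Brca1 measured 0.925, 0.801, 1.62, 0.965 and 1.89 FPKM in CKO replicates 1 to 5, against a lowest value of 2.63, a median of 3.13 and a highest of 4.6 FPKM in WT. All 5 CKO libraries lay below all 7 WT libraries, and the means were 1.24 ± 0.482 FPKM in CKO (SD, n = 5) and 3.42 ± 0.815 FPKM in WT (SD, n = 7). The log2 fold change was -0.99 (SE 0.18, adjusted p = 0.00219, limma). On its longest annotated transcript these values correspond to 13 to 24 fragments per CKO library and 28 to 81 per WT library, so the level in a single library carries a large counting error.

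Bard1 and Brip1, partners of Brca1, were also lower. Bard1 (chromosome 1, 71027498 to 71103146, minus strand), whose product forms the active ligase with Brca1, measured 0.983, 0.916, 0.759, 0.764 and 0.984 FPKM in CKO replicates 1 to 5, against a lowest value of 1.22, a median of 1.80 and a highest of 2.37 FPKM in WT. The groups did not overlap, with a log2 fold change of -0.57 (SE 0.15, adjusted p = 0.0178, limma). Bard1 did not pass without CKO replicates 1 and 5 (adjusted p = 0.0519, limma) or without CKO replicates 2 and 3 (adjusted p = 0.0681, limma). Brip1 (chromosome 11, 86058138 to 86201193, minus strand) encodes a helicase bound by Brca1. It measured 0.805, 0.274, 0.737, 0.858 and 0.835 FPKM in CKO replicates 1 to 5, against a lowest value of 1.26, a median of 1.65 and a highest of 2.14 FPKM in WT. Again the groups did not overlap, with CKO replicate 2 well below the other 4 CKO libraries, and the log2 fold change was -0.67 (SE 0.16, adjusted p = 0.0127, limma). Without CKO replicates 2 and 3 Brip1 was at -0.55 and did not pass (adjusted p = 0.0649, limma). Palb2, which joins Brca1 to Brca2, overlapped between 0.540 and 1.63 FPKM in CKO and between 0.431 and 2.36 FPKM in WT, with a log2 fold change of -0.15 (SE 0.24) that did not pass.

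Brca2, Rad51c, Rad51d, Xrcc2 and Xrcc3 serve the strand invasion step of recombination, and 1 of these 5 genes was called. Xrcc2 (chromosome 5, 25689812 to 25705825, minus strand) measured 6.88, 11.1, 6.49, 4.31 and 5.48 FPKM in CKO replicates 1 to 5, against a lowest value of 10.3, a median of 13.1 and a highest of 14.7 FPKM in WT. CKO replicate 2 reached into the WT range while the other 4 CKO libraries lay below it. The means were 6.86 ± 2.59 FPKM in CKO (SD, n = 5) and 12.8 ± 1.59 FPKM in WT (SD, n = 7), with a log2 fold change of -0.86 (SE 0.17, adjusted p = 0.00405, limma). Brca2 measured 0.966, 1.03, 0.830, 0.827 and 0.654 FPKM in CKO replicates 1 to 5, against a lowest value of 0.933, a median of 1.74 and a highest of 2.89 FPKM in WT. Although 3 of the 5 CKO libraries lay below every WT library, Brca2 did not pass, with a log2 fold change of -0.51 (SE 0.20, adjusted p = 0.0910, limma). Rad51c averaged 1.12 ± 0.251 FPKM in CKO (SD, n = 5) and 2.30 ± 1.10 FPKM in WT (SD, n = 7), with a log2 fold change of -0.59 (SE 0.22, adjusted p = 0.0829, limma). Its WT values spread from 1.08 to 4.39 FPKM, and without WT replicate 3, the lowest of them, Rad51c passed (-0.69, adjusted p = 0.0395, limma). Rad51d and Xrcc3 did not pass, with log2 fold changes of 0.15 (SE 0.16) and -0.17 (SE 0.17).

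Among the enzymes that cut and unwind recombining DNA, Exo1 (chromosome 1, 175880581 to 175913489, plus strand), an exonuclease that resects broken ends and also serves mismatch repair, had the lowest ratio of group means among the 8 genes called, 0.231 in CKO relative to WT. It measured 0.409, 0.279, 0.281, 0.755 and 0.265 FPKM in CKO replicates 1 to 5, against a lowest value of 1.00, a median of 1.51 and a highest of 2.93 FPKM in WT. The groups did not overlap, and the log2 fold change was -0.94 (SE 0.19, adjusted p = 0.00482, limma), resting on 4 to 12 fragments per CKO library and 15 to 61 per WT library. Blm, a helicase that dissolves recombination intermediates, averaged 0.812 ± 0.468 FPKM in CKO (SD, n = 5) and 1.54 ± 0.519 FPKM in WT (SD, n = 7) and did not pass (log2 fold change -0.50, SE 0.21, adjusted p = 0.122, limma). Rad52, which anneals single strands, did not pass either, with a log2 fold change of 0.07 (SE 0.18). Rad54l, a motor protein of recombination, was outside the fit, at 0 to 0.753 FPKM in CKO and 0.191 to 1.53 FPKM in WT, and the exact two-sided permutation test gave p = 0.2854.

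**Figure D2:**
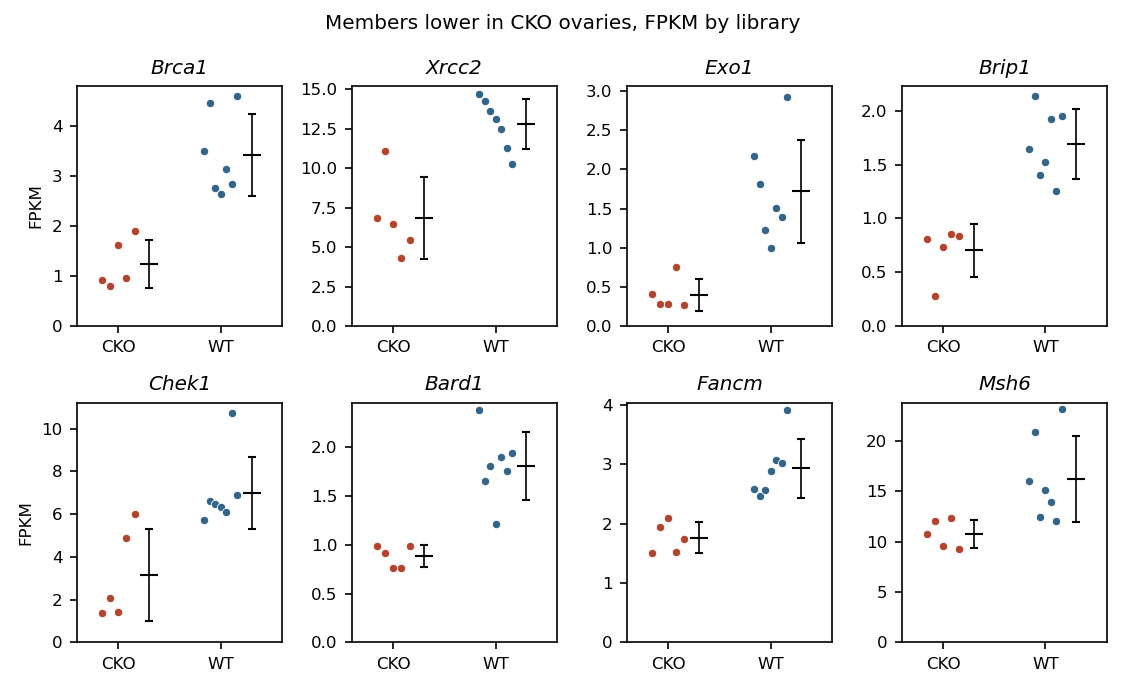
FPKM (y axis, from 0, own scale per gene) of the 8 genes called lower, with 1 point per library for the 5 CKO and 7 WT libraries and bars of the mean ± SD. Brca1, Exo1, Brip1, Bard1 and Fancm show no overlap, while 1 CKO library reaches the WT range for Xrcc2 and Chek1 and 2 do so for Msh6.

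Sequence upstream of the transcription start is shown for 4 of the called genes, because promoters of genes used in dividing cells often share short words bound by cell cycle regulators. The words searched on both strands were the E2F words TTTCCCGC, TTTCGCGC, TTTGCCGC and TTTGGCGC, the CHR word TTTGAA and the NF-Y word CCAAT. The windows are RefSeq promoters on GRCm38.p6, and only bases before the start that meet no annotated exon are printed, 5′ to 3′ on the strand of the gene, with words found in either orientation in capitals. Of the other called genes, Xrcc2 and Exo1 had no window, and Chek1 and Fancm had no such bases to print.
Brca1: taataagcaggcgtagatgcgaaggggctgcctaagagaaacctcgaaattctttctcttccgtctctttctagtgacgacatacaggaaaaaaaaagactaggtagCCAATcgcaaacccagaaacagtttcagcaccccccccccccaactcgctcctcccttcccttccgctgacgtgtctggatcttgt
Bard1: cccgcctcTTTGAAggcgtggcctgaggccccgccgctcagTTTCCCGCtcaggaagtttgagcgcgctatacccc
Brip1: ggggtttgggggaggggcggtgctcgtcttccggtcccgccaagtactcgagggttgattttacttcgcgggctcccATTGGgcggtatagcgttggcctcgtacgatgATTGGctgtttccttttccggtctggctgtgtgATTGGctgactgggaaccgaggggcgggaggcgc
Msh6: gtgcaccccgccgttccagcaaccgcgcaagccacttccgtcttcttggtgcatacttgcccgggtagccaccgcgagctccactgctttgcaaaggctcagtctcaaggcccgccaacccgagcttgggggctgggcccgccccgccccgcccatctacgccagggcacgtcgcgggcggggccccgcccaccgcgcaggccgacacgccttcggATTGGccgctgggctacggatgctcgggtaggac
These stretches are chr11:101551956-101552148 for Brca1, chr1:71103147-71103222 for Bard1 and chr11:86201194-86201369 for Brip1, each on the minus strand, and chr17:87974800-87975049 on the plus strand for Msh6. The Bard1 stretch ends 174 bases before the RefSeq start, where an annotated exon begins.

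The printed stretch of Bard1 holds an E2F word and the CHR word, Brca1 and Msh6 hold 1 CCAAT word each, Brip1 holds 3, and Msh6 has an E2F word just after its start, outside the printed bases. Of the called genes not printed, Chek1 has none of these words in its window, and Fancm has CCAAT. Of the 37 genes, 29 had a RefSeq window of 300 bases, running from 250 before to 50 after the start. Some genes had more than 1 window, and a gene was counted if any of its windows held the word. An E2F word was present for 6 of these 29 genes (20.7%), against 2.6% of all 27025 genes with a window, whether tested here or not. Of those 6 genes, Bard1 and Msh6 were called lower, while Brca2, Rad51c, Chek2 and Xrcc6 were not. CCAAT was present for 20 of the 29 genes (69.0%) against 41.1% of all genes, and the CHR word for 1 (3.45%) against 20.2%. Among called and uncalled genes, 2 of 6 and 4 of 23 had E2F words, and 4 of 6 and 16 of 23 had CCAAT. These are matches of letters within a window, with no measurement of binding.

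**Figure D3:**
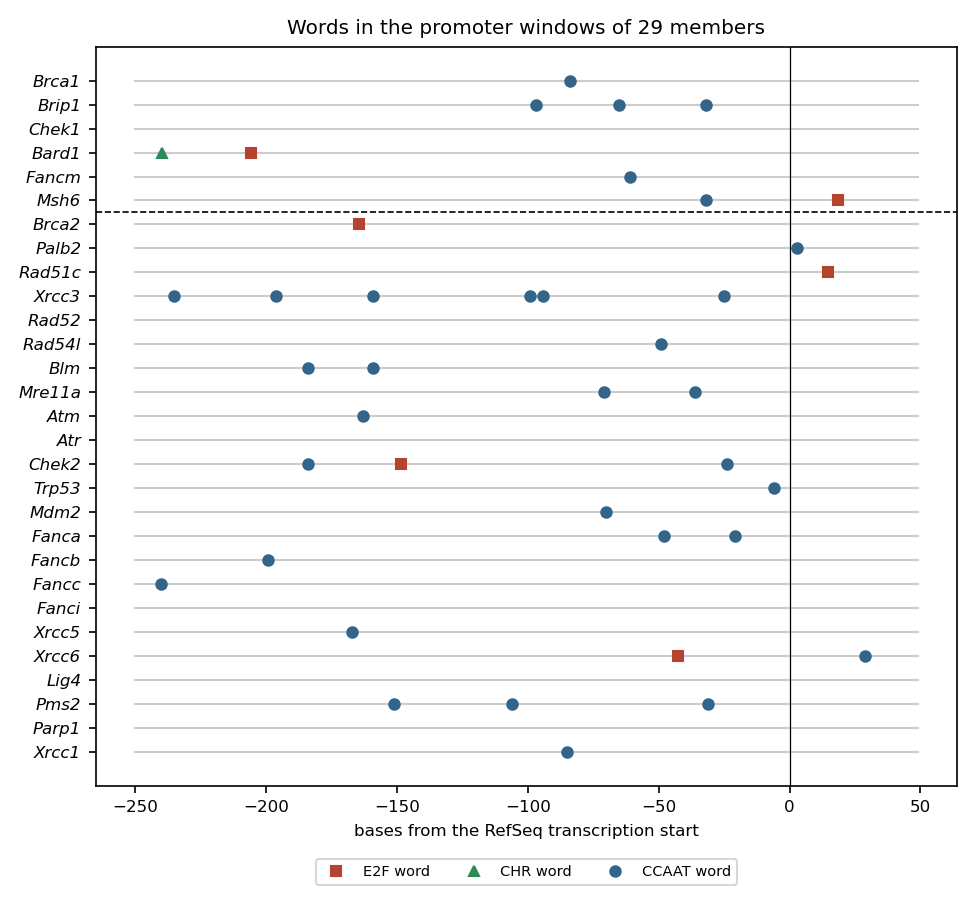
Positions of E2F, CHR and CCAAT words (x axis, bases from the RefSeq transcription start) in the windows of 29 genes, 1 row per gene, with the 6 called genes that have a window above the dashed line. For genes with words in more than 1 window, only the window with the lowest genomic start is plotted. E2F words stand in Bard1 and Msh6 above the line and in Brca2, Rad51c, Chek2 and Xrcc6 below it.

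Of the 7 genes of break sensing and checkpoint signalling, 6 were tested and Chek1 alone was called. Chek1 (chromosome 9, 36708482 to 36727065, minus strand) encodes the kinase that acts below Atr to stop cells with unfinished or damaged replication from dividing. It measured 1.36, 2.09, 1.41, 4.89 and 6.03 FPKM in CKO replicates 1 to 5, against a lowest value of 5.72, a median of 6.49 and a highest of 10.7 FPKM in WT. CKO replicates 1, 2 and 3 were far below every WT library, CKO replicate 4 was just below them and CKO replicate 5 was within their range. On the scale of FPKM + 1 the log2 fold change of -1.07 (SE 0.27) was the most negative of the 30 genes (adjusted p = 0.0143, limma). The ratio of group means was 0.4515 for Chek1, against 0.231 for Exo1, whose low FPKM this scale understates more. Without CKO replicates 2 and 3, the libraries with oviduct markers, the log2 fold change of Chek1 was -0.77 (adjusted p = 0.108, limma) and no longer passed.

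The sensors and the other kinases showed no called difference. Atm, the kinase activated by double-strand breaks, measured 2.71, 3.31, 2.56, 3.12 and 2.82 FPKM in CKO replicates 1 to 5, against a lowest value of 1.73, a median of 2.75 and a highest of 3.69 FPKM in WT. All CKO values of Atm lay within the WT range, with a log2 fold change of 0.07 and a 95% interval of -0.24 to 0.39. Chek2, the kinase below Atm that in mouse oocytes activates p53 and p63 after damage, averaged 3.36 ± 1.05 FPKM in CKO (SD, n = 5) and 3.89 ± 1.18 FPKM in WT (SD, n = 7), with a log2 fold change of -0.16 and a 95% interval of -0.60 to 0.28. The genes of the Mre11-Rad50-Nbn complex, which holds broken ends, had log2 fold changes of -0.10 for Mre11a, -0.22 for Rad50 and 0.16 for Nbn, with SE of 0.19, 0.13 and 0.17. Atr, the kinase that senses stalled replication, was below the filter, at 0.450 to 0.747 FPKM in CKO and 0.581 to 0.850 FPKM in WT (exact two-sided permutation p = 0.1553). These intervals leave room for changes of Atm and Chek2 by up to 0.39 and 0.60 on the log2 scale, so equal levels were not shown.

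The p53 family genes did not pass. Trp53, which encodes p53, measured 46.9, 26.7, 42.5, 33.2 and 31.0 FPKM in CKO replicates 1 to 5, against a lowest value of 27.3, a median of 37.4 and a highest of 40.6 FPKM in WT. The CKO libraries lay on both sides of the WT range, and the means were 36.1 ± 8.37 FPKM in CKO (SD, n = 5) and 35.8 ± 4.5 FPKM in WT (SD, n = 7), with a log2 fold change of -0.01 and a 95% interval of -0.31 to 0.29. Mdm2, the ligase that degrades p53 and is itself a p53 target, averaged 32.5 ± 4.85 FPKM in CKO (SD, n = 5) and 34.6 ± 2.57 FPKM in WT (SD, n = 7), with a log2 fold change of -0.10 (95% interval -0.32 to 0.12). Trp63, whose product p63 guards the quality of resting oocytes and also marks basal cells of epithelia, measured 1.41, 2.78, 2.37, 1.22 and 1.05 FPKM in CKO replicates 1 to 5, against a lowest value of 0.404, a median of 1.13 and a highest of 1.85 FPKM in WT. The 2 CKO libraries above the WT range, replicates 2 and 3, were those with oviduct markers. The log2 fold change of Trp63 was 0.37 (SE 0.22, adjusted p = 0.273, limma) over all libraries and 0.10 (adjusted p = 0.831, limma) without these 2. The part of the oviduct markers in this value was not tested.

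Genes that p53 is known to activate were examined beside the family, from a list of 23 genes in the table. All 23 were tested, 3 were called higher and 1 lower, with a median log2 fold change of 0.13, and 7 were higher and 1 lower at an unadjusted p under 0.05. Across all genes tested 8.7% were called higher and 7.59% lower, and 15.5% were higher and 14.7% lower at an unadjusted p under 0.05. Cdkn1a, the cell cycle inhibitor p21, measured 100.1, 30.6, 90.6, 81.3 and 58.8 FPKM in CKO replicates 1 to 5, against a lowest value of 16.8, a median of 29.6 and a highest of 51.0 FPKM in WT. In 4 of the 5 CKO libraries Cdkn1a lay above every WT library and CKO replicate 2 lay within the WT range, with a log2 fold change of 1.25 (SE 0.32, adjusted p = 0.0174, limma). In the absence of CKO replicates 1 and 5, which had the highest macrophage and blood sums, it was 1.12 (adjusted p = 0.0913, limma), and the exact Wilcoxon test also did not call it (adjusted p = 0.0947). Fas, a death receptor, averaged 5.43 ± 0.849 FPKM in CKO (SD, n = 5) and 2.71 ± 1.48 FPKM in WT (SD, n = 7), with a log2 fold change of 0.88 (SE 0.25, adjusted p = 0.0260, limma). This call was lost without CKO replicate 3, CKO replicate 5 or WT replicate 1 (adjusted p = 0.0640, 0.0620 and 0.0524, limma). Ei24, a membrane protein of the endoplasmic reticulum, was higher without overlap at 93.1 ± 8.65 FPKM in CKO (SD, n = 5) and 75 ± 4.0 FPKM in WT (SD, n = 7), with a log2 fold change of 0.30 (SE 0.08, adjusted p = 0.0221, limma). Without CKO replicate 3 Ei24 was at 0.26 and did not pass (adjusted p = 0.0659, limma). Zmat3, an RNA-binding protein, was lower at 5.57 ± 0.561 FPKM in CKO (SD, n = 5) and 7.43 ± 0.871 FPKM in WT (SD, n = 7), with a log2 fold change of -0.36 (SE 0.11, adjusted p = 0.0457, limma), and kept its call without CKO replicate 3, WT replicate 3 or WT replicate 4 but lost it without each of the other 9 libraries. The number of p53 targets called higher was 1 without CKO replicate 3 and 5 without WT replicate 7.

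**Figure D4:**
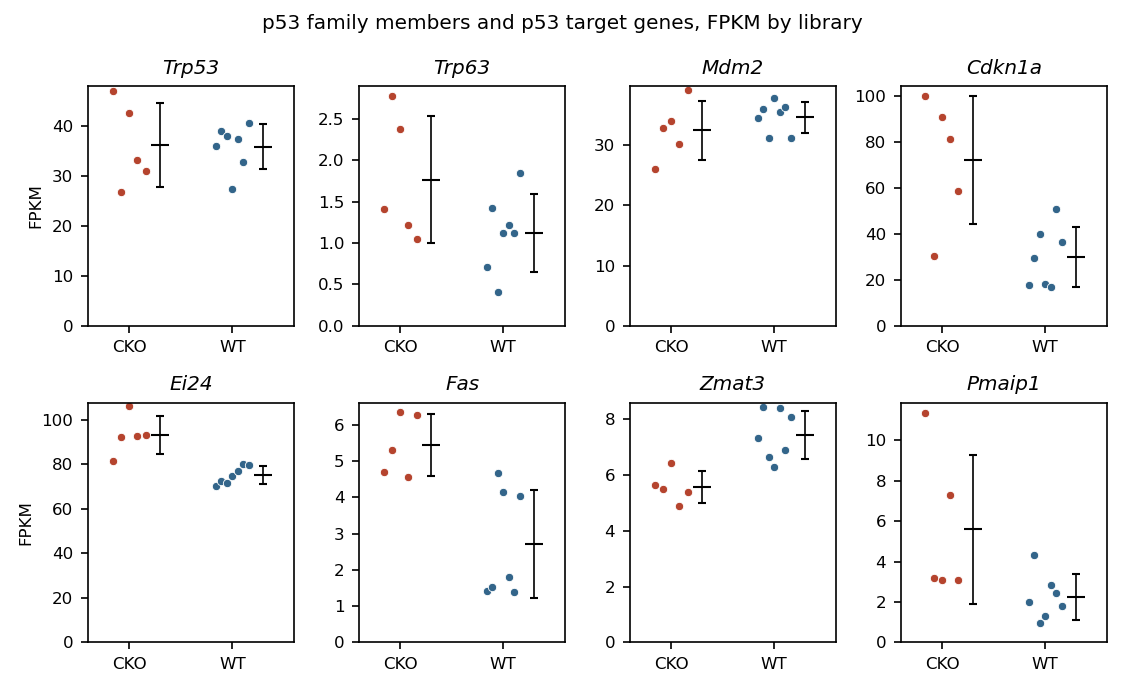
FPKM (y axis, from 0, own scale per gene) of Trp53, Trp63, Mdm2 and the 5 p53 target genes with the smallest p, with 1 point per library for the 5 CKO and 7 WT libraries and bars of the mean ± SD. Cdkn1a, Ei24 and Fas are higher and Zmat3 lower in CKO, and Trp53, Trp63, Mdm2 and Pmaip1 did not pass.

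Of the 6 Fanconi anaemia genes, which repair crosslinked DNA, 2 were tested and Fancm was called. Fancm (chromosome 12, 65075603 to 65132058, plus strand), a DNA translocase that anchors the Fanconi core complex, measured 1.5, 1.95, 2.10, 1.53 and 1.73 FPKM in CKO replicates 1 to 5, against a lowest value of 2.47, a median of 2.89 and a highest of 3.92 FPKM in WT. The groups did not overlap, with means of 1.76 ± 0.259 FPKM in CKO (SD, n = 5) and 2.93 ± 0.495 FPKM in WT (SD, n = 7) and a log2 fold change of -0.51 (SE 0.14, adjusted p = 0.0228, limma). Without CKO replicate 1 the adjusted p was 0.0581, and without CKO replicate 4 it was 0.0525 (limma), with log2 fold changes of -0.47 in each. Fancc, a core complex subunit, did not pass at 7.37 ± 2.10 FPKM in CKO (SD, n = 5) and 6.09 ± 1.37 FPKM in WT (SD, n = 7).

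The other 4 Fanconi genes were below the filter. Fanci and Fancd2 encode the clamp that is placed on damaged DNA. Fanci lay between 0.152 and 0.410 FPKM in CKO and between 0.342 and 1.10 FPKM in WT, with 4 of the 5 CKO libraries below every WT library. Its exact two-sided permutation p was 0.0265, and 0.373 after adjustment over the 5086 genes outside the fit that had a value. Fancd2 lay between 0 and 0.216 FPKM in CKO and between 0 and 0.730 FPKM in WT (exact permutation p = 0.1414). Fancb and Fanca encode core complex subunits. Fancb lay between 0.194 and 1.43 FPKM in CKO and between 0.257 and 1.67 FPKM in WT (exact permutation p = 0.5013), and Fanca was listed at 0 in 10 of the 12 libraries (exact permutation p = 0.4697). Fanci shares 16% of its exon bases with Polg on the opposite strand, and whether the authors counted by strand is not given in the sources used here. Rad54l, Fanca and Xrcc6 likewise share over 5% of their exon bases with a measured neighbour, and Msh6 shares 0.782% with Fbxo11. None of the 7 genes outside the fit passed after adjustment, and Fanci alone was below 0.05 before it. Of all 5086 genes outside the fit, 0 passed, and their smallest adjusted p was 0.146 (exact permutation test). The 0 of 7 is therefore no result about these genes.

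End joining ligates broken ends without a template, and none of its 4 genes passed (0 of 3 tested by limma, 0 at an unadjusted p under 0.05, and 0 by the exact Wilcoxon test). Across all genes tested, limma called 7.59% lower and 8.7% higher. With such shares, 3 genes are too few for the 0 to be read as a result. Xrcc5 and Xrcc6, the Ku subunits that bind ends, had log2 fold changes of -0.13 (SE 0.22) and -0.03 (SE 0.14). Lig4, the ligase, averaged 4.6 ± 1.24 FPKM in CKO (SD, n = 5) and 5.95 ± 1.23 FPKM in WT (SD, n = 7), with a log2 fold change of -0.32 (SE 0.19). Prkdc, the kinase recruited by Ku, was below the filter at 0.299 to 0.592 FPKM in CKO and 0.304 to 0.777 FPKM in WT (exact permutation p = 0.3409).

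Of the 4 genes of mismatch, base excision and single-strand break repair, Msh6 was called. Msh6 (chromosome 17, 87975062 to 87990892, plus strand), which recognises mismatches, measured 10.7, 12, 9.58, 12.3 and 9.26 FPKM in CKO replicates 1 to 5, against a lowest value of 12, a median of 15.1 and a highest of 23.1 FPKM in WT. The top of the CKO range met the bottom of the WT range, and the log2 fold change was -0.52 (SE 0.16, adjusted p = 0.0383, limma). Msh6 lost its call in 7 of the 12 fits that each drop a single library, namely CKO replicate 1, 3 or 5, WT replicate 1, 2 or 4 or the unnumbered WT library, with adjusted p of up to 0.0907 (limma). Pms2, which acts after mismatch recognition, Parp1, the sensor of single-strand breaks, and Xrcc1, the scaffold of their repair, had log2 fold changes of -0.24, -0.09 and -0.19 with SE of 0.20, 0.12 and 0.20 and did not pass.

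**Figure D5:**
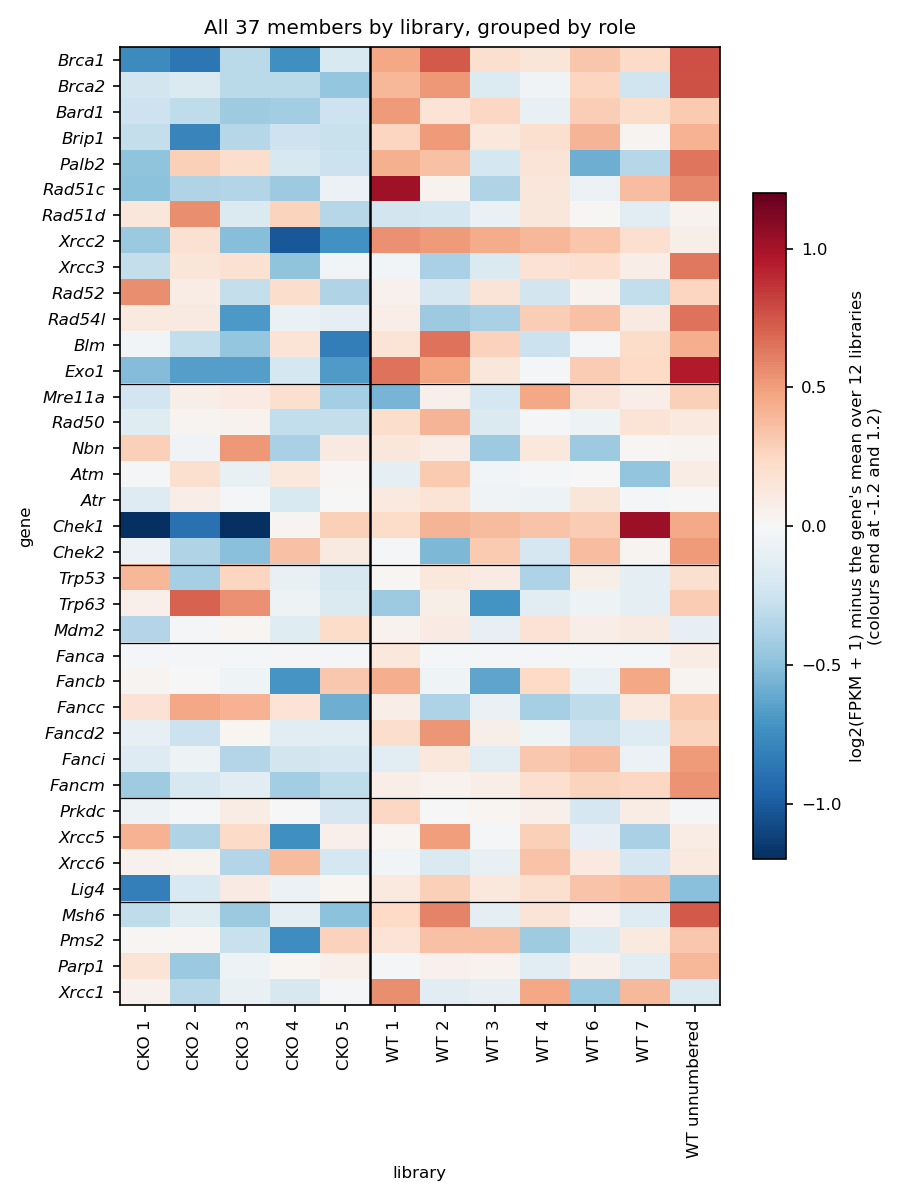
Heat map of log2(FPKM + 1) minus the gene's mean over the 12 libraries for all 37 genes (rows, grouped by role with black lines) in the 5 CKO libraries (left) and the 7 WT libraries (right), with colours ending at -1.2 and 1.2. The called genes are blue in most CKO libraries, and the unnumbered WT library is red in many rows.

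The wider repair network was read from 66 further genes of the same pathways. Of these 61 were tested, 11 were called lower and 1 higher, with a median log2 fold change of -0.18, and 18 were lower and 2 higher at an unadjusted p under 0.05. The shares over all genes tested were 7.59% called lower and 8.7% called higher, and 14.7% lower and 15.5% higher at an unadjusted p under 0.05. Clspn, 1 of the 11, passed the filter through WT libraries alone, so a difference in it was partly built into the filter. With no filter on low values 8 of the 66 genes were called lower, against 5.12% of all genes then tested. H2afx encodes the histone variant that is phosphorylated around breaks. It measured 70.6, 41.8, 55.7, 72.3 and 69.8 FPKM in CKO replicates 1 to 5, against a lowest value of 80.2, a median of 99.5 and a highest of 152 FPKM in WT, without overlap (log2 fold change -0.80, SE 0.17, adjusted p = 0.00514, limma). Topbp1, which activates Atr, averaged 3.31 ± 0.651 FPKM in CKO (SD, n = 5) and 6.19 ± 1.29 FPKM in WT (SD, n = 7), also without overlap (log2 fold change -0.73, SE 0.16, adjusted p = 0.00582, limma). Ube2t, the enzyme that passes ubiquitin to the Fanconi clamp, measured 1.77, 1.23, 0, 1.21 and 1.02 FPKM in CKO replicates 1 to 5, against a lowest value of 1.56, a median of 3.23 and a highest of 6.02 FPKM in WT. CKO replicate 1 reached into the WT range (log2 fold change -1.19, SE 0.27, adjusted p = 0.00825, limma). The single gene called higher was Uimc1, which encodes the ubiquitin reader Rap80 that brings Brca1 complexes to breaks. Uimc1 measured 9.95, 12.4, 11.3, 10.95 and 10.8 FPKM in CKO replicates 1 to 5, against a lowest value of 5.15, a median of 6.19 and a highest of 8.57 FPKM in WT, without overlap (log2 fold change 0.64, SE 0.13, adjusted p = 0.0051, limma). Of the 66 genes, 7 were called lower without CKO replicate 1, without CKO replicate 3 or without WT replicate 1, and 2 were called higher without CKO replicate 1, WT replicate 6 or the unnumbered WT library.

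Many cell type markers also differed between the groups. Among dividing cell markers, Ccna2, a cyclin of DNA replication and mitosis, averaged 15.9 ± 5.73 FPKM in CKO (SD, n = 5) and 33.2 ± 4.07 FPKM in WT (SD, n = 7), and Pcna, the replication clamp, 53.4 ± 12.2 FPKM in CKO and 65.9 ± 11.6 FPKM in WT without passing the test. The granulosa genes Inha and Inhbb, which encode inhibin subunits, averaged 1305 ± 374 and 47.1 ± 67.5 FPKM in CKO (SD, n = 5) and 3221 ± 828 and 384 ± 124 FPKM in WT (SD, n = 7). The oocyte growth factor gene Gdf9 averaged 9.69 ± 9.67 FPKM in CKO (SD, n = 5) and 52.5 ± 25.5 FPKM in WT (SD, n = 7), and Zar1, a maternal factor, lay between 0 and 7.56 FPKM in CKO, at 0 in replicates 3 and 5, and between 10.3 and 38.2 FPKM in WT. Not all oocyte markers were lower, since 7 of the 13 tested did not pass and 4 of the 13 had a log2 fold change above 0. Of these 7, named after their values were seen, Nlrp5, a maternal factor, averaged 9.5 ± 5.22 FPKM in CKO (SD, n = 5) and 9.25 ± 3.79 FPKM in WT (SD, n = 7), with a log2 fold change of -0.02. Nobox and Figla, transcription factors of oocytes, had log2 fold changes of 0.17 (SE 0.35) and 0.74 (SE 0.39). The macrophage genes Lyz2, a lysozyme, and C1qb, a complement subunit, averaged 1413 ± 969 and 374 ± 148 FPKM in CKO (SD, n = 5) and 322 ± 113 and 158 ± 80.4 FPKM in WT (SD, n = 7). The part of these shifts in cell type markers in the lower repair genes was not tested.

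Blood cell markers, called in neither direction (0 of 4 tested by limma, with 1 higher at an unadjusted p under 0.05), summed to between 12.96 and 316 FPKM in CKO and between 19.4 and 248.5 FPKM in WT. The haemoglobin genes Hba-a2 and Hbb-bs, each with a near-identical copy that makes the split of reads uncertain, spanned 0.065 to 140.4 and 0.031 to 65.8 FPKM in CKO and 0.063 to 90.9 and 0.030 to 144 FPKM in WT. The oviduct genes Ovgp1 and Foxj1, a secreted glycoprotein and a regulator of cilia, reached 252 and 4.72 FPKM in CKO replicate 2 and 81.9 and 1.48 FPKM in CKO replicate 3, against at most 1.88 and 0.199 FPKM in the other CKO libraries and 1.46 and 0.600 FPKM in WT. Without CKO replicates 2 and 3, 4 of the repair genes were called lower against 5.42% of all genes, and without CKO replicates 1 and 5, which had the highest macrophage sums, 5 were called against 5.11%. Brca1, Xrcc2 and Exo1 were called under both. The unnumbered WT library had the highest WT value for 15 of the 37 genes, including 4 of the 8 called lower, and 7 genes were called lower without it.

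In the authors' deposited table, Xrcc2 and Chek1 were the 2 of the 8 genes with a q under 0.05, a threshold that 6.7% of the genes tested here pass in the lower direction. In that table Brca1, Bard1 and 3 more of the 8 carry a p of exactly 1, as do 24 of the 37 genes and 13715 of all genes listed. The meaning of such a p is not given in the sources used here. Among the 37 genes, those with it averaged at most 3.67 FPKM over the 12 libraries (Chek2). The others averaged at least 4.71 FPKM (Rad51d).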

How the data were processed

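RNA was measured in 12 libraries from ovaries. Per the labels, reads were aligned to mm10 with TopHat2 2.0.13 and FPKM were computed and normalized by the authors with Cufflinks 2.2.1, and groups were compared with Cuffdiff 2.2.1. The gene annotation, scaling and strand use were not given in the sources used here. Besides FPKM, the deposited table adds 3 comparison columns, a log2 ratio, a p-value and a q-value by the authors. Its ratio matches CKO over WT to 0.01 for 99.9% of 13045 genes, although its name gives the other order.

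The name of 1 WT column matches the title of one WT sample and the description of another, so it was given no replicate number and is called the unnumbered WT library. The other 11 columns carry the samples' descriptions, by which it would be WT replicate 5. The correlation of libraries, at most 0.971, showed no duplicate. Relative depth came from 562 low genes with a single transcript in GENCODE M21, and fragment numbers assume the longest transcript.

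FPKM were analysed as log2(FPKM + 1) with limma 3.58.1 (two-sided, empirical Bayes with a trend, group alone in the model) in R 4.3.3, checked on simulated data. FPKM are not counts, so no count test was run. Genes outside the fit were compared by the exact two-sided permutation test over 792 splits, whose smallest p is 0.0013. All intervals of differences are 95% intervals of limma and fragment numbers cover counting error only.

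The members and lists were chosen with earlier results of these data known. Values are named for called genes, the 3 largest uncalled fold changes, Trp63, Trp53, Mdm2, Atm, Brca1, Brca2, Chek1, Chek2 and genes outside the fit, the 4 smallest p of each further list (Pmaip1, plotted, is outside this rule) and the 2 highest of each marker list. Alternatives covered the pseudocount, filter, scaling, weights, an exact Wilcoxon test, libraries left out and a replicate block. Some genes of the further lists are counted but not reported here by name.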

Additional observations from a re-analysis of the deposited data

Results flagged for a closer look

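Among 89 groups of 5 or 7 libraries examined, for the 37 repair and checkpoint genes and the 8 further genes named, 5 single libraries stood apart from the rest of their group by more than Dixon's 95% limit, and chance alone sets apart about 1 in 20 groups. Brip1 was at 0.274 FPKM in CKO replicate 2, below the other CKO libraries. Chek1 was at 10.74 FPKM in WT replicate 7, above the other WT libraries. The other 3 lie in the unnumbered WT library, where Fancm was at 3.916 FPKM and Parp1 at 21.53 FPKM, both above the other WT libraries, and Lig4 at 3.414 FPKM, below them.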

How the results depend on the processing

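Of the 37 genes, 8 were called lower, and 6 to 9 when single libraries were left out, 5 without CKO replicates 1 and 5, and 4 in the absence of CKO replicates 2 and 3. Other repair genes called lower numbered 11, and 7 to 11 with single libraries left out, 7 by the exact Wilcoxon test and 5 without CKO replicates 2 and 3. Those called higher numbered 1, and 1 to 2 with single libraries left out and 2 under median-of-ratios scaling, array weights or without CKO replicates 1 and 5. p53 targets called higher numbered 3, and 1 to 5 with single libraries left out and 1 without CKO replicates 1 and 5. The 1 called lower became 0 without a filter, under array weights and without CKO replicates 1 and 5, and 0 to 1 with single libraries left out. Over the whole fit 999 genes were called lower, 737 to 1106 with a single library dropped and 676 by the exact Wilcoxon test. Whether repair genes lost more calls than other genes was not tested. All genes called higher numbered 1145, and 749 by the exact Wilcoxon test and 702 without CKO replicates 1 and 5.

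Replicate numbers 1 to 4 did not pair the groups (correlations of deviations of -0.03, 0.09, 0.04 and -0.07, with 0 of 4 CKO libraries nearest to their own number). With the replicate block on these 8 libraries, 3 of the 37 genes (Brca1, Xrcc2 and Chek1) and 4 other repair genes were called lower, 0 p53 targets lower, and 622 genes of all lower and 756 higher. The same libraries without a block, chosen after seeing the data, gave 3 and 6 lower, and 0 p53 targets lower and 1 higher.

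Uncalled genes near 0 changed sign. Without CKO replicates 1 and 5 the log2 fold change was 0.040 for Palb2, 0.078 for Mre11a and 0.012 for Xrcc6. Without CKO replicates 2 and 3 it was 0.063 for Chek2, 0.042 for Parp1, 0.034 for Trp53 and 0.061 for Xrcc6. With array weights Trp53 was at 0.038, and on the 8 numbered libraries, with or without the replicate block, Mre11a was at 0.090, Trp53 at 0.072 and Xrcc6 at 0.018. With single libraries left out, Rad52 lay between -0.060 and 0.17, Atm between -0.0014 and 0.13, Trp53 between -0.11 and 0.088, Xrcc5 between -0.25 and 0.035, Xrcc6 between -0.13 and 0.054 and Parp1 between -0.15 and 0.0067. No setting lost Brca1 or Xrcc2. The cause of these shifts was not tested. Fewer libraries often lowered the number of calls, but not always. With all libraries 999 genes were called lower, against 737 without CKO replicate 3 and 1106 without the unnumbered WT library.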
